A study of Mus musculus with 321 samples.

Results

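The 931 regions described here are broad H3K9me3 domains of NIH3T3 cells, a long-established line of mouse embryo fibroblasts. H3K9me3, the trimethylated form of lysine 9 of histone H3, was mapped in 2 ChIP-seq libraries, and the authors called its enriched stretches (SICER islands) in each library. The islands of both libraries were intersected base by base, and every segment of 50 kb or more was kept, so that the members were chosen by the H3K9me3 island calls themselves. Of 24786 shared segments, 931 met this length; they covered 85.4 Mb, which was 24.5% of the shared bases and 3.14% of the 2722 Mb of chromosome spanned by the files. The series studied the transcription factor Tcf-1. ATAC-seq, which marks open chromatin, was made from 4 NIH3T3 libraries with a retrovirus (RV) that carries Tcf-1 (Tcf-1 RV) and 4 with an empty retrovirus (Empty RV). It was also made from sorted CD4+CD8+ double-positive (DP) thymocytes of mice labelled TCF-1-/- deltaVII (DP KO, 2 libraries) and of wild-type mice labelled C56BL/6 (DP WT, 2 libraries). NIH3T3 cells are of NIH/Swiss origin and were used at passages 8-12, and the H3K9me3 and H3K27me3 libraries (2 each) came from such cells without Tcf-1. The thymocytes therefore differed from the fibroblasts in strain and in tissue, and no H3K9me3 library of thymocytes was analysed here. A pooled list of 40562 Tcf-1 binding summits came from Tcf-1 RV cells, and its file name is tagged day 2.

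H3K9me3 is laid down by a small set of histone methyltransferases, among them SETDB1 and the SUV39H enzymes, and is read by heterochromatin protein 1. It marks compact, mostly silent chromatin over satellite repeats, transposons, clusters of zinc finger genes and lineage-inappropriate genes. H3K27me3, the mark of the Polycomb complexes, usually occupies other silent regions, such as unused developmental genes.

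The sequences of 10 promoters in domains show the kinds of gene start that lie there, open in both cell types, in 1 of them or in neither. Each runs from 250 bases before to 50 bases after a transcript's start, 300 bases in all (RefSeq, GRCm38.p6), written 5′ to 3′ on the gene's strand, with CpG dinucleotides, the sites of DNA methylation, in capitals. Atf7ip (chr6:136518601-136518900, plus strand), Zfp110 (chr7:12834511-12834810, plus strand) and AU041133 (chr10:82127763-82128062, plus strand) lay under a peak in all 8 NIH3T3 and all 4 DP libraries. Gm14124 (chr2:150257267-150257566, plus strand) lay under a peak in all 8 NIH3T3 libraries and in 0 DP libraries. Ctsc (chr7:88277835-88278134, plus strand) and Tmtc2 (chr10:105574430-105574729, minus strand) lay under a peak in all 4 DP and 0 NIH3T3 libraries. Tafa5 (chr15:87544049-87544348, plus strand) and Ajap1 (chr4:153482781-153483080, minus strand) are CpG-dense and lay under a peak in 0 of the 12 libraries. Vmn2r99 (chr17:19361885-19362184, plus strand) and Tas2r118 (chr6:23970011-23970310, minus strand) are CpG-poor and also lay under a peak in 0 of the 12 libraries.
Atf7ip: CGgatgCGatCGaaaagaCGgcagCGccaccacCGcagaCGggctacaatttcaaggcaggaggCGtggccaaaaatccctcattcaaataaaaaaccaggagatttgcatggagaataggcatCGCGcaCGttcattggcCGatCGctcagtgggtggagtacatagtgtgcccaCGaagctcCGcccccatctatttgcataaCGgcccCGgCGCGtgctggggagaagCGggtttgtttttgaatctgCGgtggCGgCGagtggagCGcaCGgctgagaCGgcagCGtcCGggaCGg
Zfp110: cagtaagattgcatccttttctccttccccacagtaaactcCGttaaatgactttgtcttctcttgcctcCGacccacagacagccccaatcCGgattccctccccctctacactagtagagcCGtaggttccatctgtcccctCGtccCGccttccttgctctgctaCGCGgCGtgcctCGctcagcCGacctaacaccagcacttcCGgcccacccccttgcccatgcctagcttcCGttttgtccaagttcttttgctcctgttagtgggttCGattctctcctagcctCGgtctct
AU041133: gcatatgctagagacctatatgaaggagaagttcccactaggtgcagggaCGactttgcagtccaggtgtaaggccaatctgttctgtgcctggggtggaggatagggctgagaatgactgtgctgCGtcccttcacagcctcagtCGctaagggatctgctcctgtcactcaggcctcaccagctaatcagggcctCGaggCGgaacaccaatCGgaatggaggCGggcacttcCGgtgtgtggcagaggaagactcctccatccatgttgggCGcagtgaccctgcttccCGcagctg
Gm14124: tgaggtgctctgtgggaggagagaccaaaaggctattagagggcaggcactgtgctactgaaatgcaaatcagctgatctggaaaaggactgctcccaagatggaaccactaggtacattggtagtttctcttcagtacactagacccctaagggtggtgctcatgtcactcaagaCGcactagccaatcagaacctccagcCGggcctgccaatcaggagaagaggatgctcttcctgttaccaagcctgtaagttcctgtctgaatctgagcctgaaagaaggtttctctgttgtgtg
Ctsc: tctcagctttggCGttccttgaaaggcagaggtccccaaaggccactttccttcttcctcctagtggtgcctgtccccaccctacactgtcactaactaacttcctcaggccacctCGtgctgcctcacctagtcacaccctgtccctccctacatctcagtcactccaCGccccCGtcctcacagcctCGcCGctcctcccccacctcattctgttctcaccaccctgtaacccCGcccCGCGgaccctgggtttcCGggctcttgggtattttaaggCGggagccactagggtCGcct
Tmtc2: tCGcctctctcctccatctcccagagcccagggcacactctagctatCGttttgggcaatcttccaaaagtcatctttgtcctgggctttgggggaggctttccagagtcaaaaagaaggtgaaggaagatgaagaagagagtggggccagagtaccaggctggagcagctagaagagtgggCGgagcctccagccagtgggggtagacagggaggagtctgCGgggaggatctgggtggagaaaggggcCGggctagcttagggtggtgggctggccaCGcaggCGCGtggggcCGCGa
Tafa5: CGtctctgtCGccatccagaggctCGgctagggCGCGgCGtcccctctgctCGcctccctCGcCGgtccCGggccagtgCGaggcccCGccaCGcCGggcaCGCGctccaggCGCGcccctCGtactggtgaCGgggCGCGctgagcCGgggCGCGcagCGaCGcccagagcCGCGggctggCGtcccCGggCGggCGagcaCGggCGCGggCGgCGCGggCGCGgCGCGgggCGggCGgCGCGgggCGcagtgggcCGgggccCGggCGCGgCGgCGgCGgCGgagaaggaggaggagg
Ajap1: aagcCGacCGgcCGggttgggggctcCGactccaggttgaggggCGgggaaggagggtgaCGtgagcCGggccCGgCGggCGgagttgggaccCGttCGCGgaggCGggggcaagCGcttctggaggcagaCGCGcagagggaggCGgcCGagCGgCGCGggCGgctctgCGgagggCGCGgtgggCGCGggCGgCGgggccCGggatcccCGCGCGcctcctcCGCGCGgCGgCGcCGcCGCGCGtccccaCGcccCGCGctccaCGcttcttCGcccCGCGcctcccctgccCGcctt
Vmn2r99: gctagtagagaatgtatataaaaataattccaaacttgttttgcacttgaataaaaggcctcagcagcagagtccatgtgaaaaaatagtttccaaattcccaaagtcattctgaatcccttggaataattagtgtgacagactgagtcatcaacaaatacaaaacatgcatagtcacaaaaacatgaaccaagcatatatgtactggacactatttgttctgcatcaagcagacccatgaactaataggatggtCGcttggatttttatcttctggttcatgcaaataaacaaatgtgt
Tas2r118: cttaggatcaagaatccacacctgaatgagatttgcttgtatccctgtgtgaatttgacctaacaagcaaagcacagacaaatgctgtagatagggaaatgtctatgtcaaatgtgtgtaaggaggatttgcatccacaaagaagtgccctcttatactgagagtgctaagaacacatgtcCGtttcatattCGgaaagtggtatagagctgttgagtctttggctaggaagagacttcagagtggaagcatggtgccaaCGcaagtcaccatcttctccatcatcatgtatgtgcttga

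The printed starts differ most in their CpG count. Tafa5 held 56 CpG and Ajap1 51, against 29 in Atf7ip, 15 in Zfp110, 12 in Ctsc, 10 each in AU041133 and Tmtc2, 3 in Tas2r118, 2 in Gm14124 and 1 in Vmn2r99. These starts were chosen after their values were seen and show the range, not a trend: among all domain starts, CpG-dense ones were open more often than CpG-poor ones, with the counts given beside the promoter results.

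The domains were many times longer than most H3K9me3 segments. Their median length was 72 kb (quartiles 58 and 101.8 kb), against 8 kb for the 23855 shorter segments. Domains of 100 kb or more made up 25.9%, and 48 measured 200 kb or more, and the longest measured 627.6 kb. At the threshold, 11 segments measured exactly 50 kb and 10 measured 49.6 kb. Of the 11, only the segment within Lpar1, a receptor for lysophosphatidic acid, held open NIH3T3 regions (4, with 5 Tcf-1 summits), and of the 10 also 1 did (3 regions, 1 summit). The islands under domains were not stronger than others. The authors' fold of ChIP over control reads had a median of 1.99 in replicate 1 and 1.97 in replicate 2 for the islands that hold domains, against 2.15 and 2.10 for islands without one. Single domains ranged from 1.11 to 7.18 in replicate 1 and from 1.09 to 7.09 in replicate 2. These values chose the members and are a description only.

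Chromosomes held very unequal shares of the domains. Chromosome 1 held 15.3% of the domains, chromosome 6 held 14.4%, chromosome 17 held 9.56% (89 domains), chromosome 12 held 9.13% (85) and chromosome 4 held 8.38% (78), whereas chromosomes 14 and X held 0, chromosomes 16 and Y 2 each and chromosomes 9 and 11 held 4 each. Chromosome 17 had the highest share of its span in domains, 9.68%, followed by chromosome 6 with 7.75% and chromosome 4 with 5.88%. The order of chromosomes was not that of gene density: protein-coding genes per Mb and the share in domains had r = 0.13 (rho 0.26, 20 chromosomes without Y). Reads of the control library moved with it. Within H3K27me3 islands, which are other places on the same chromosomes, the control library of replicate 1 had 41.3 reads per kb on chromosome 17, 39.7 on chromosome 6, 39.2 on chromosome 4 and 39.1 on chromosome 1, against 28.1 on chromosome 14 and 20.5 on chromosome X. Across the 20 chromosomes this read density and the share in domains had r = 0.74 and rho 0.73; the points share 1 control library and the same island calls. Chromosomes 11 (35.4 reads per kb, 0.221% in domains), 16 (34.1 reads per kb, 0.106%) and 19 (41.9 reads per kb, 3.05%) were among those off that order. The part of control read density in the distribution of domains was not tested.

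**Figure D1:**
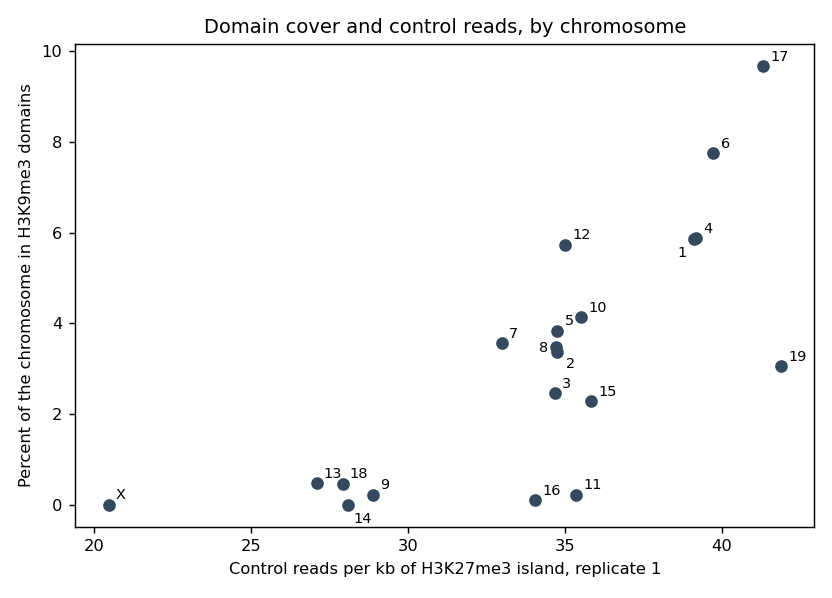
Percent of each chromosome's span in H3K9me3 domains (y axis) against control reads per kb of H3K27me3 islands in replicate 1 (x axis), 1 point for each of 20 chromosomes, Y left out. Chromosomes 17 and 6 sit at the upper right with 9.68% and 7.75% in domains, while X and 14 are at 0% with 20.5 and 28.1 control reads per kb.

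Of the 931 domains, 16.5% lay wholly within 1 protein-coding gene, 598 touched no protein-coding gene, and 70 genes held at least 1 whole domain. Genes that were only partly inside had a median length of 161.6 kb, against 17.2 kb for all protein-coding genes, and 48 genes of 500 kb or more were touched (21.1% of such genes, against 1.38% of all protein-coding genes). Ptprd, a receptor tyrosine phosphatase of synapses, had 1867 of its 2271 kb in 13 domains, and its relative Ptprt had 950 of 1139 kb in 8. Tmem132d, a membrane protein, was covered to 98.1% by 3 domains and Galnt17, a glycosyltransferase, to 91.1% by 5. Among adhesion genes, Cdh13 (T-cadherin) had 788 of 1185 kb in domains, Ctnna2 (neural alpha-catenin) 780 of 1098 kb and the contactin-associated Cntnap5b 453 of 718 kb. Grm7, a metabotropic glutamate receptor, had 707 of 922 kb in domains. Gene length moved with being touched, and its part was not tested.

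**Figure D2:**
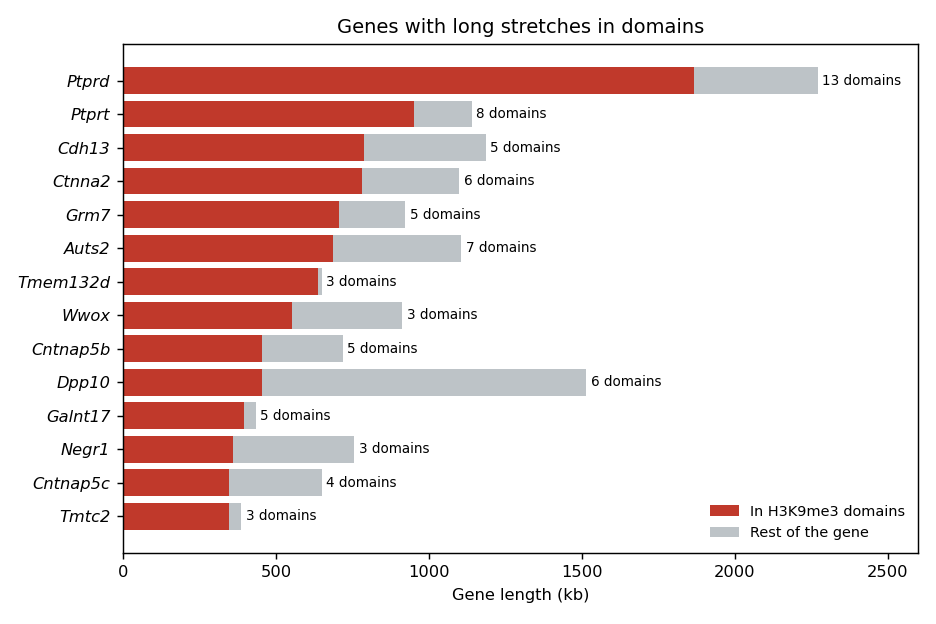
Protein-coding genes with long stretches in H3K9me3 domains (14 genes); the x axis is gene length in kb, red is the length in domains, grey the rest, and the number of domains stands at the right. Ptprd is first with 1867 kb in 13 domains, and Tmem132d has 98.1% of its length covered.

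Of the 10 longest domains, 3 lay within 1 gene. The longest, on chromosome 6 at 110386001 to 111013600, covered the start of Grm7 and held 1 open NIH3T3 region and 2 open DP regions. The second (544 kb) lay within Cdh13, the third (515.6 kb) within Ptprd, and the fifth (442.4 kb) within Tmem132d. The sixth (441.6 kb) covered a start of the zinc finger gene Tshz2 and 9 long noncoding RNAs, and the ninth (376 kb) held all of Slc16a7, a monocarboxylate transporter. The other four of the 10 longest touched no protein-coding gene. In all, 332 domains touched no gene of any type.

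Whole genes in domains were few, and 38.8% of them were receptors for odours, pheromones or tastes. Another 38.1% were in none of the families listed. That class holds most protein-coding genes, so 38.1% is below its share of all genes. Protein-coding genes lay wholly inside at 1.57 per Mb of domain, against 8.25 per Mb for the others elsewhere. The median length of the genes inside was 3.34 kb, against 17.2 kb for all. A gene counted as inside only if its whole span lay in 1 domain, which leaves out long genes by definition. Both the length and the 1.57 per Mb therefore depend on this rule. Counted by midpoint, more protein-coding genes lay in domains. The part of the rule in the 2 contrasts was not tested. Of all 21887 protein-coding genes, 0.612% were wholly inside and 1.38% were touched, and families are given beside these shares. The vomeronasal, olfactory and taste receptor families each had a larger share wholly inside than the 0.612% of all genes. The 3 domains with the most whole genes held 8 protocadherin genes (Pcdhb15 to Pcdhb22, on chromosome 18), 5 olfactory receptors (Olfr807 to Olfr811) and 4 genes each (olfactory receptors Olfr1284 to Olfr1287, and the bitter taste receptors Tas2r122, Tas2r115, Tas2r124 and Tas2r102, which tied).

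Of 88 exocrine and secretory peptide genes, taken by the symbol prefixes Esp, Scgb, Pate, Svs and Spink, 9 (10.2%) were wholly inside. Esp23, Esp24 and Esp16 encode pheromone peptides of exocrine glands, and Scgb2b21 a secretoglobin. Among receptors, 10 type 2 vomeronasal receptors were inside (8.06% of the family), such as Vmn2r99, Vmn2r59, Vmn2r102 and Vmn2r75. In mice, receptors of this class detect pheromone peptides such as those of Esp genes. Type 1 vomeronasal receptors had 3 inside (1.3% of the family), olfactory receptors 34 of 1110 (3.06%) and taste receptors 5 of 38 (13.2%). The order by share among families of 10 or more genes was taste receptors, protocadherins (8 of 69, 11.6%), Nlrp genes (2 of 18, 11.1%), exocrine peptides and UDP glucuronosyltransferases (2 of 22, 9.09%). The ends of Pcdhb15 and Pcdhb17 lay under a peak in 4 of 4 Tcf-1 RV and 2 of 4 Empty RV libraries. Those of Pcdhb21 did so in 0 Tcf-1 RV and 2 Empty RV libraries and those of Pcdhb19 in 0 Tcf-1 RV and 1 Empty RV library, and the other four of the 8 were under a peak in no NIH3T3 library. All 8 were at 0 in DP libraries. Shares that rest on 2 genes are not distinguished from each other by these counts.

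Zinc finger genes, known targets of H3K9me3, had 7 of 468 members wholly inside (1.5%) and 22 touched (4.70%), among them Zfp982, Zfp985, Zfp977 and Zfp42. Their set was taken from symbols, so zinc finger genes with other names, such as Tshz2, were not counted and these shares can be too low. Contactins and their associated proteins, which serve neuronal adhesion, had 0 of 13 inside and 8 touched, and glutamate receptors 0 of 27 inside and 4 touched, whereas the protocadherins, also adhesion genes, had 8 inside and 28 touched. Members were at 0 inside and 0 touched for ribosomal proteins (89), collagens (44), potassium channels (94), cytochromes P450 (99) and MHC genes (38). Family members lie side by side, so that 1 domain can take several, and many are near-identical copies whose reads the authors' mapping could have split.

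**Figure D3:**
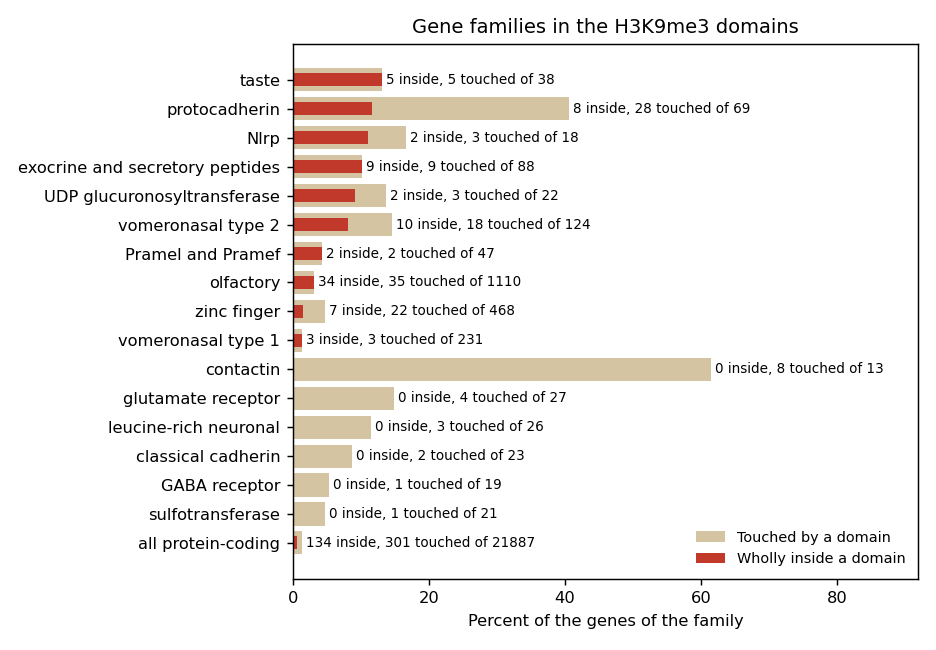
Percent of the genes of each family (x axis) touched by an H3K9me3 domain (wide pale bars) and wholly inside one (narrow red bars), with counts at the right; families of 10 or more genes with at least 1 touched gene, solute carriers left out, and all protein-coding genes in the lowest row. Contactins have the highest touched share (8 of 13) with 0 inside, and taste receptors the highest share inside (5 of 38).

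Open chromatin was sparse in the domains in every library of both cell types. Tcf-1 RV replicates 1 to 4 had 2.88, 2.41, 1.45 and 3.36 peaks per Mb of domain, counted by their midpoint, and Empty RV replicates 1 to 4 had 1.09, 1.66, 2.54 and 3.81. DP KO replicates had 0.305 and 0.422 per Mb (26 and 36 peaks), and DP WT replicates 1.43 and 1.90. Every list was thinner there than elsewhere: peaks per Mb averaged 2.40 ± 0.950 in domains and 16.6 ± 4.85 elsewhere over the 8 NIH3T3 libraries (SD, n = 8), and the highest library in domains (3.81) was below the lowest elsewhere (8.60). DP KO averaged 0.363 ± 0.0828 peaks per Mb in domains and 4.42 ± 0.276 elsewhere, and DP WT 1.66 ± 0.331 in domains and 10.2 ± 2.06 elsewhere (SD, n = 2 each). Read depths of the ATAC libraries are not given, so the lists' lengths (36583 to 62639 peaks in Tcf-1 RV, 22778 to 58026 in Empty RV, 11171 and 12209 in DP KO, 23249 and 30985 in DP WT) are the measure of how much was called.

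In NIH3T3 the log2 ratio of peak density in domains over elsewhere was -2.84 ± 0.225 (SD, n = 8), below 0 in 8 of 8 libraries (exact two-sided sign-flip test, p = 0.0078, the smallest it can give; 0.0313 after Benjamini-Hochberg adjustment over 8 tests). In DP cells it was -3.12 ± 0.596 (SD, n = 4), below 0 in 4 of 4 libraries (exact sign-flip p = 0.125, the smallest 4 libraries allow; adjusted 0.2). Domains were also poorer than shorter segments of the same mark. Density in domains over shorter segments had a log2 ratio of -1.88 ± 0.189 in NIH3T3 (exact sign-flip p = 0.0078, adjusted 0.0313, n = 8) and of -1.62 ± 0.417 in DP cells (exact sign-flip p = 0.125, adjusted 0.2, n = 4). The NIH3T3 libraries pool Tcf-1 RV and Empty RV and the DP libraries pool KO and WT, so each SD includes differences between arms. In DP cells the ratios against elsewhere were -3.79 and -3.45 in KO and -2.62 and -2.62 in WT. Whether replicates stem from separate cultures or animals is nowhere labelled. These p-values therefore measure only the spread between the pooled libraries, part of which may be technical.

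Broad Polycomb segments held more peaks per Mb than broad H3K9me3 domains in most fibroblast libraries. The 66 H3K27me3 segments of 50 kb or more covered 4.24 Mb and held 29, 27, 15 and 64 peaks in Tcf-1 RV replicates 1 to 4 and 4, 15, 38 and 61 in Empty RV replicates 1 to 4. The log2 ratio of density in H3K9me3 domains over these segments was -1.34 ± 0.729 (SD, n = 8), negative in 7 of 8 libraries (exact two-sided sign-flip p = 0.0156, adjusted 0.0417). Empty RV replicate 1, with 4 peaks in the H3K27me3 segments and the shortest NIH3T3 list, had the opposite sign (0.21). With the same number of widest peaks in each library the mean ratio was -0.66. Against elsewhere the same library was at -2.98.

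**Figure D4:**
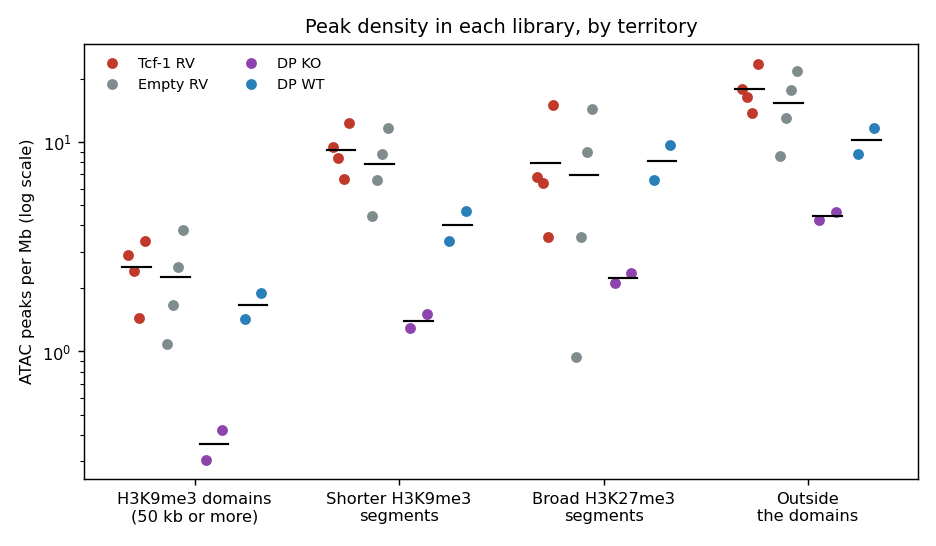
ATAC peaks per Mb (log axis) in H3K9me3 domains, shorter H3K9me3 segments, broad H3K27me3 segments and all territory outside the domains; each point is a library and each black line a group mean. NIH3T3 libraries had 1.09 to 3.81 peaks per Mb in domains and 8.60 to 23.6 outside; DP KO had 0.305 and 0.422 in domains and DP WT 1.43 and 1.90.

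The surroundings of domains were also sparse, and peaks gathered at the edges. In the first 5 kb inside an edge, Tcf-1 RV libraries averaged 1.93 ± 0.650 peaks per Mb and Empty RV libraries 1.66 ± 1.02. In the 5 kb just outside, Tcf-1 RV averaged 5.76 ± 0.936 and Empty RV 5.24 ± 1.24 (SD, n = 4 each), so the Tcf-1 RV libraries did not overlap between the 2 strips (0.967 to 2.36 inside, 4.85 to 7.03 outside), nor did the Empty RV libraries (0.859 to 3.11 inside, 3.76 to 6.54 outside). DP KO averaged 0.269 inside and 2.54 outside, and DP WT 1.5 inside and 4.42 outside. At 25 to 50 kb outside, Tcf-1 RV averaged 3.13 and Empty RV 2.92 peaks per Mb, still under the 18 and 15.3 per Mb of all territory elsewhere. Beyond 50 kb from both edges Tcf-1 RV averaged 2.13 ± 0.963 and Empty RV 1.88 ± 1.12 per Mb, within the spread of the first 5 kb inside. These strips were compared as a description, with no test.

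**Figure D5:**
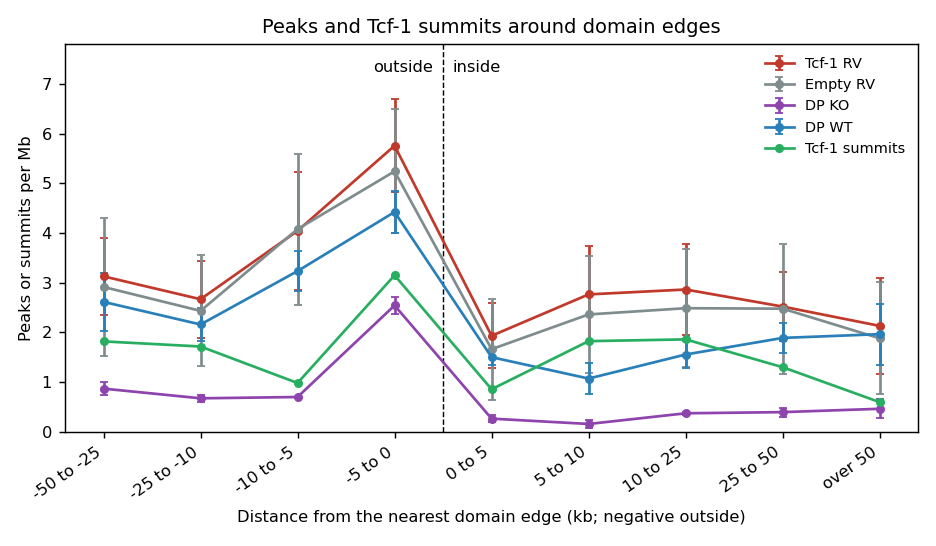
Peaks per Mb (group mean, bars are SD over 4 Tcf-1 RV, 4 Empty RV, 2 DP KO and 2 DP WT libraries) and Tcf-1 summits per Mb (1 pooled list, no error) by distance from the nearest domain edge in kb, negative outside. All 5 curves are highest in the 5 kb just outside an edge, from 5.76 in Tcf-1 RV to 2.54 in DP KO, and lower in the first 5 kb inside.

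Most domains held no open region at all. The peaks of the 8 NIH3T3 libraries merged into 77882 regions, of which 456 lay in domains (0.586%), and those of the 4 DP libraries into 31628, of which 0.525% did. No NIH3T3 region lay in 700 of the 931 domains, no DP region in 862, and 656 held neither these nor a Tcf-1 summit. Regions of both cell types lay in 39 domains. Of the 456 fibroblast regions, 65 were called in all 8 libraries (14.3%, against 24% of regions elsewhere), and 28.1% in a single library (against 21.1%). Only 16 lay within 1 kb of an end of a protein-coding gene (3.51%, against 16.3% elsewhere), and 26 were open in both DP WT libraries (5.70%, against 16.1%). The domain with the most fibroblast regions (13, on chromosome 4 at 71043601 to 71337600) touched no protein-coding gene, as did the next on chromosome 17 (12 regions, 93289201 to 93492400). A 214.8 kb domain within Negr1, a neuronal adhesion gene, held 10, 2 of them open in all 8 libraries, and a 93.6 kb domain on chromosome 4 that touched no protein-coding gene also held 10.

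Promoters in domains were poor in CpG and mostly not under a peak, and the few open ones formed small classes by cell type. Of the protein-coding starts in the promoter table, 0.757% lay in domains. Their median GC content was 42.7% and their median CpG observed over expected was 0.21, against 56.7% and 0.57 for 21102 promoters elsewhere. The share of them under a peak was 4.35%, 3.73%, 3.73% and 4.35% in Tcf-1 RV replicates 1 to 4 and 3.11%, 3.73%, 3.73% and 4.35% in Empty RV replicates 1 to 4. It was 5.59% and 6.83% in DP KO and 5.59% and 7.45% in DP WT. Elsewhere the libraries ranged from 31% to 45.7%, so that no library in domains overlapped any elsewhere. The gap was also seen among CpG-dense starts. Of 27 domain promoters with a ratio of 0.6 or more, 4 were open in any NIH3T3 library (14.8%), against 76.8% of 10110 such promoters elsewhere, and 9 in any DP library (33.3%, against 77.7%). Of domain promoters with a lower ratio, 2.24% were open in any NIH3T3 library, against 19.2% of such promoters elsewhere, and 2.99% in any DP library, against 16.3%. The motif TCAAAG, read on both strands and part of the sites that Tcf factors bind, stood in 18% of domain promoters and in 14.4% of all promoters, and a Tcf-1 summit lay in 0% of domain promoters, against 6.79% elsewhere.

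Open in all 12 libraries were the starts of Atf7ip, Zfp606, Zfp110 and AU041133. Atf7ip encodes a partner of the H3K9 methyltransferase SETDB1, and Zfp606 and Zfp110 encode zinc finger proteins. The domain around Atf7ip (78 kb) was among those with the most open regions, with 8 NIH3T3 and 5 DP regions and 3 summits, and had a fold of 2.66 and 2.67 in the H3K9me3 replicates. AU041133 lay in an 82.4 kb domain with a fold of 6.74 and 6.87, among the strongest of all. Open in all 4 DP and 0 NIH3T3 libraries were Ctsc, the lysosomal cathepsin C, Bend5, a BEN domain protein, and Tmtc2, a mannosyltransferase of the endoplasmic reticulum. Amigo2, an adhesion gene, was open in all 4 DP and 3 NIH3T3 libraries, and Gm13212 in 3 DP and 7 NIH3T3 libraries. Gm14124 was open in all 8 NIH3T3 and 0 DP libraries. Among CpG-dense starts without a peak in any of the 12 libraries were Tafa5 (a secreted neural peptide), Ajap1 (a junction protein), Sox11 and Adcyap1 (a neuropeptide). Genes whose ends were counted in place of starts gave the same picture: 4 to 10 of the genes wholly inside had an end within 1 kb of a peak in a library (2.99% to 7.46%), against 35.1% to 50.1% of the other genes.

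In thymocytes, a larger share of the regions in fibroblast domains was missing from the KO libraries than of all regions. Of the DP regions in domains, 83 were called in both DP WT and neither DP KO library (lost), against a background of 31.7% of all DP regions; the share was 50% (95% Wilson interval 42.5% to 57.5%, counting error only). No region was gained (background 0.142%; the upper Wilson bound of this 0 is 2.26%), and 21 were kept in all 4 libraries (12.7%, background 29.2%). Of the lost regions 5 lay at a gene end, and of the kept regions 8. Among all DP regions in domains, 13.3% lay at a gene end, against 34.9% elsewhere. The part of this difference in the lost share was not tested. Wwox, an oxidoreductase gene at a fragile site, held 13 DP regions in 1 domain, the most of any, and 8 in the next, and of these 10 were lost and 2 kept. A domain at Cdyl2, a chromodomain gene, held 10, of which 3 were lost and 2 kept. A domain among the immunoglobulin heavy chain segments on chromosome 12 (114895201 to 115031200) held 9, of which 7 were lost. The whole run of 11 domains over these segments held 27.1% of the DP regions in domains, and 33 of its regions were lost (73.3%). Without that run 50 regions were lost, 41.3% of the remaining ones, a setting chosen after seeing the data. Fibroblasts had 1 open region in the Wwox domains and 1 in the heavy chain domain.

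The share of a library's peaks in domains was 0.233% and 0.295% in DP KO, against 0.525% and 0.523% in DP WT. Both KO libraries were below both WT libraries, with a difference of -0.260 percentage points (exact two-sided permutation p = 0.3333, the smallest that 2 against 2 allows; adjusted 0.444). The KO lists also held fewer peaks in all. With the 11171 widest peaks of each library the difference was -0.13 percentage points (exact permutation p = 0.3333).

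No domain region of fibroblasts followed the presence of Tcf-1 in every library. Of 456 NIH3T3 regions in domains, 0 were called in all 4 Tcf-1 RV and no Empty RV library (background 1.08%), and 0 in the reverse pattern (background 0.11%); the upper Wilson bound of 0 of 456 is 0.835%. Leaving out replicate 3 of both arms gave 12 gained regions of the 456 in domains, and 2853 among all regions. The Tcf-1 RV list of replicate 3 was the shortest of its arm, and its part was not tested. Leaving out replicate 1, 2 or 4 of both arms gave 1 gained region in domains each, and 936, 983 and 1397 among all regions. The 0 therefore needed all replicates and changed most without replicate 3. In each of these runs the percentage gained was lower among domain regions than among all regions. Of the 456, 38.6% were called in more Tcf-1 RV than Empty RV libraries (against 41.2% of all regions) and 31.8% in more Empty RV libraries (against 20.3%). Of the 51 domain regions with a summit, 25 leaned to Tcf-1 RV (49%, against 54.3% of all regions with a summit) and 2 to Empty RV.

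The share of peaks in domains was 0.517%, 0.473%, 0.339% and 0.458% in Tcf-1 RV replicates 1 to 4, against 0.408%, 0.410%, 0.463% and 0.560% in Empty RV replicates 1 to 4. The arms overlapped, with a difference of -0.0138 percentage points (exact two-sided permutation p = 0.8286, adjusted 0.8286, n = 4 each). File names tag replicates 1 and 2 as day 2 and replicates 3 and 4 as day 4. The summit list, tagged day 2, was set against regions merged over both tags. Within the day 2 tag both Tcf-1 RV libraries were higher, by 0.0856 percentage points, and within the day 4 tag both were lower, by -0.113 (exact permutation p = 0.3333 in each, the smallest possible with 2 against 2). Between cell types, Empty RV averaged 0.461% ± 0.0711 (SD, n = 4) and DP WT 0.524% ± 0.00136 (SD, n = 2), a difference of -0.0632 percentage points (exact permutation p = 0.4, adjusted 0.457).

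Tcf-1 summits were sparse in domains. Of the 40562 summits, 0.288% lay in domains (95% Wilson interval 0.241% to 0.346%), or 1.37 per Mb against 15.3 per Mb elsewhere, a log2 ratio of -3.48. Shorter H3K9me3 segments held 9.87 and broad H3K27me3 segments 7.78 summits per Mb. Summits in domains had a median score of 13.1, against 17 elsewhere, on the authors' scale, which is not stated. Of those in domains, 51 lay within an NIH3T3 region (43.6%, against 53.6% elsewhere). Summits lay in 69 of the 931 domains. The domain with most held 8 (chromosome 17, 63672001 to 63742400, no protein-coding gene), the next, on chromosome 18 at Lvrn, held 6, and those within Lpar1, Galnt17 and Ptprm held 5 each. The summits come from 1 pooled list, so no spread between libraries can be given.

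H3K27me3 was almost absent from the domains. Its islands covered 0.158% and 0.123% of the domains' bases in replicates 1 and 2, against 10.9% and 10.5% elsewhere and 5.11% and 4.83% of the shorter H3K9me3 segments. Shared H3K27me3 bases lay in 13 domains and covered over 5% of 3. The highest, 46.7%, was the domain nearest the start of chromosome 9 (2999601 to 3072400), followed by 29.5% in a domain on chromosome 19 (56138401 to 56189200).

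As a check of the labels by marker genes with an end under a peak, 7 to 12 of 14 fibroblast markers and 0 of 14 T cell markers were open in NIH3T3 libraries, and 1 to 4 fibroblast and 3 to 14 T cell markers in DP libraries. B cell markers were at 0 of 5 in all libraries, myeloid markers at 0 to 2 of 5 in NIH3T3 and 0 in DP, and erythroid markers at 0 in NIH3T3 and 0 to 1 of 4 in DP. No marker gene was touched by a domain. With 1.38% of all protein-coding genes touched, lists of this size can hold 0.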

How the data were processed

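The authors deposited genomic positions (start and end) of ATAC peaks per library, with no count or height, SICER islands per histone library with the read counts of ChIP and control, their ratio (fold), a p-value and an adjusted p-value (all below 0.01), per the file headers and values, and pooled Tcf-1 summits with a score of unstated scale. Per the submitters' processing notes, tools included MACS2, Bowtie2 2.2.9, STAR 2.5, Picard, FastQC and Trim Galore. The sources used here do not say which tool served which file or how reads with several matches were treated. Coordinates are GRCm38 (mm10).

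Domains are intersections of the H3K9me3 islands of both replicates of 50 kb or more. A peak counted by its midpoint, and 293 peaks on unplaced sequences were left out. Span is the last position of any feature per chromosome. Gene positions and promoters came from RefSeq (GRCm38.p6, 21887 protein-coding genes); zinc finger genes were taken by symbol because a planned search of protein sequences could not be run. Regions are peaks merged over the libraries of a comparison; a call needs a peak in all libraries of one arm and none of the other. Libraries were compared by exact permutation or sign-flip tests with Benjamini-Hochberg adjustment over 8 tests (threshold 0.05), checked on simulated intervals. Python 3.11.15, numpy 2.4.6, pandas 2.3.3, scipy 1.17.1 and matplotlib 3.10.9 were used. Genes were named by rules: the 10 longest domains and the domains with most genes, regions or summits. The rules also took listed families and starts open in all libraries of a cell type. Other open starts, CpG-dense starts without a peak and the promoters printed were chosen after their values were seen. A few genes meeting these rules are not reported here. Members, lists and rules were chosen with earlier results of these data known. NIH3T3 libraries of the same replicate number deviated together across regions (r 0.125 to 0.260). Libraries of different number but the same day tag also did (0.0648 to 0.194). The main tests took libraries as independent. In NIH3T3 the numbers served as pairs in the alternative run with a replicate block, in leaving out a replicate of both arms and in the pair differences. In DP cells r was -0.0505, and the numbers served as pairs only in the replicate block run.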

Additional observations from a re-analysis of the deposited data

Results flagged for a closer look

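The difference between Tcf-1 RV and Empty RV in the share of peaks that lay in domains went opposite ways in the 2 day tags. It was 0.0856 percentage points for the libraries tagged day 2, where both same-numbered pairs were positive (0.108 and 0.0629), and -0.113 for those tagged day 4, where both were negative (-0.125 and -0.102). The difference between the tags itself was not tested. List lengths moved with it: Tcf-1 RV had the longer list in both pairs of day 2 (47623 against 22778, and 43527 against 34601 peaks) and the shorter one in 1 of the pairs of day 4 (36583 against 46819, and 62639 against 58026). Their part in the difference was not tested. Of 18 sets of 4 values examined for a library apart from the others, none met Dixon's limit.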

How the results depend on the processing

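Of the alternative values for 18 results, 78.9% kept their direction and side of the threshold or stayed near the main value. This percentage pools different kinds of result and does not measure stability. Tests within DP cells and of Empty RV against DP WT could not reach the threshold, so their side of it was fixed by the design. Among counts and values without a test, more alternatives moved than stayed near the main value. The mean log2 ratio of peak density kept its sign under every alternative run: -3.20 to -2.77 (log2) against elsewhere in NIH3T3 (main -2.84), -3.45 to -2.37 in DP cells, and -1.62 to -0.66 against broad H3K27me3 in NIH3T3. Unadjusted exact p-values in NIH3T3 were 0.0078 to 0.0313; those in DP cells (0.125, or 0.25 with 1 library left out) are the smallest the design allows and say nothing about stability. The share of NIH3T3 peaks in domains changed sign with the libraries tagged day 2 (0.0856) and ranged from -0.0371 to 0.0221 when 1 library was left out. With the replicate block its difference was -0.0138 (exact p = 0.875), and for DP cells, whose numbers did not deviate together, -0.260 (exact p = 0.5); the block changed no call. Leaving out libraries gave 1 to 12 gained and 0 to 3 lost NIH3T3 regions and 0 to 2 gained DP regions in domains (main 0 each), and requiring a peak over at least 50% of a region gave 1 gained NIH3T3 region.

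Without the heavy chain run, 50 DP regions were lost (main 83), a setting added after seeing the data. Domains depend on their definition. A minimum of 100 kb left 25.9% of the domains, 39.1 Mb, 37 lost DP regions of 84, 47 whole genes, 3 zinc finger genes, a summit ratio of -4.56 and 0.0496% H3K27me3. Islands of fold 2 or more gave 42.3% as many domains, 40.8 Mb, 74 genes, a summit ratio of -2.91 and 0.187% H3K27me3. Joining segments under 5 kb apart gave 157.6% as many, 167.7 Mb, 345 genes and 19 zinc finger genes. Counting genes that share 1 base gave 301 genes, and the better-scored 50% of summits a ratio of -3.77. Lists without heights and no ATAC read depth limit all peak comparisons: a region without a peak is not shown to be closed.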

Other observations

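Domains came in runs. With gaps of up to 500 kb allowed, 96 domains stood alone, and 22 runs held 10 or more domains each and 379 in all. The run at Ptprd on chromosome 4 held 34 domains in 5.68 Mb, 83.6% of it inside domains. A run of 34 on chromosome 6 covered 48% of 6.49 Mb (74121601 to 80616400). Its protein-coding genes ran from Ctnna2 to the synaptic gene Lrrtm4, with the Reg genes, secreted lectins of the gut and pancreas, between them. On chromosome 17, a run of 13 domains held the Esp genes and olfactory receptors, and a run of 12 the Vmn2r receptors next to Fpr-rs7, a formyl peptide receptor. On chromosome 5 a run of 19 domains joined Galnt17 and Auts2.

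Noncoding and segmental genes differed in their share inside. Variable segments of antigen receptors had 51 of 394 inside (12.9%), of which 40 were of the immunoglobulin heavy chain, 10 of the kappa chain and 1 of the T cell receptor beta chain. Pseudogenes had 306 of 9944 inside (3.08%), long noncoding RNAs 1.16% of 12727 and miRNAs 11 of 1228 (0.896%). Longer domains were not emptier of fibroblast peaks in proportion to length: domains of 50 to 75 kb averaged 2.52 ± 0.902 peaks per Mb and those of 200 kb or more 2.07 ± 1.00 (SD over 8 libraries), while summits were at 2.29 per Mb (70 summits) and 0.657 per Mb (9 summits), and whole protein-coding genes at 1.86 and 0.948 per Mb.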
